A study of Mus musculus with 9 samples.

Results

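The genes described here are the mRNAs of 10 regulators of the step from G1 into S phase of the cell cycle: the D cyclins Ccnd1, Ccnd2 and Ccnd3, the kinases Cdk4, Cdk6 and Cdk2, the E cyclins Ccne1 and Ccne2, the A cyclin Ccna2, and the transcription factor E2f1. They were picked by symbol from a table of 55704 genes, all 10 were found, and all 10 were among the 20207 genes with a mean of at least 0.1 FPKM, the fragment number normalised to gene length and sequencing depth. The choice was made with their levels in these libraries known, above all the opposite course of Ccnd1 and Ccnd2, so their levels and differences are given as a description and without a test.

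The cells were neural stem cells (NSCs) grown from the subventricular zone of adult C57BL/6 mice, with male and female mice pooled for each isolation, and passaged in culture. The bFGF/EGF-treated NSCs were kept in proliferation medium with bFGF and EGF and collected at day 0. The bFGF/BMP4-treated NSCs had EGF replaced by BMP4, the BMP4-treated NSCs received BMP4 without bFGF or EGF, and both were collected at day 6. Each factor was used at 20 ng/mL, and each group had 3 libraries. The proliferation medium held B27 without vitamin A and both BMP4 media held B27, and a coating of poly-L-ornithine and laminin is described for the cells that went into the BMP4 media. Treatment, time in culture, B27 supplement and any difference in coating or plating cannot be told apart in a comparison with the bFGF/EGF-treated NSCs. The bFGF/EGF-treated NSCs are also the control of both treated groups. The labels do not say whether the 3 libraries of a group came from separate isolations, so the SD given with each level is the spread between these libraries, which may be technical. The standard error of a log2 difference comes from the limma fit, which pools the spread over all groups and moderates it across genes. It rests on the same libraries and has the same limit. Whole fragment numbers rebuilt from the FPKM values gave 15892854 to 17419822 fragments on genes per library, and the lowest number behind any value of the 10 genes was 38 fragments. Across all genes tested, Pearson's correlation of log2 values was 0.95 to 0.964 between libraries of a group and at most 0.915 between groups.

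In G1, D cyclins bind and activate CDK4 and CDK6, which phosphorylate the retinoblastoma proteins and thereby release E2F factors. E2F factors switch on E cyclins, the A cyclin and the enzymes of DNA synthesis, and cyclin E with CDK2 completes the phosphorylation of the retinoblastoma proteins. Mitogens such as EGF and bFGF act on the D cyclins, whereas quiescent NSCs in the adult brain have left this cycle reversibly. The D cyclins are partly interchangeable as CDK4 and CDK6 partners but are under separate transcriptional control.

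Ccnd1 and Ccnd2 parted in the bFGF/BMP4-treated NSCs. Ccnd1 measured 473.0, 567.8 and 527.7 FPKM in the bFGF/EGF libraries, 6.54, 7.77 and 13.08 in the bFGF/BMP4 libraries, and 3.33, 2.71 and 2.69 in the BMP4 libraries. All 3 groups were apart, and the level was highest in bFGF/EGF and lowest in BMP4. The means were 523 ± 47.6, 9.13 ± 3.48 and 2.91 ± 0.365 FPKM (SD, n = 3 each), resting on 37871 to 43907, 495 to 906 and 207 to 255 fragments per library. Between bFGF/BMP4 and bFGF/EGF, the log2 difference of FPKM + 0.1 was -5.88 with a standard error (SE) of 0.22, a 57.3-fold lower mean. Among the 20207 genes, 8 had a more negative log2 difference in that comparison. Between BMP4 and bFGF/EGF the log2 difference was -7.44 (SE 0.22), a 179-fold lower mean, and no tested gene had a more negative one. By its mean, Ccnd1 ranked 39 from the top among the tested genes in the bFGF/EGF-treated NSCs, 5272 in the bFGF/BMP4-treated NSCs and 9634 in the BMP4-treated NSCs. In bulk RNA, fewer cells with Ccnd1 mRNA and less of it per cell cannot be told apart, which holds for every level given here.

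Ccnd2 took the other direction when bFGF was kept. It measured 152.2, 132.3 and 166.5 FPKM in the bFGF/EGF libraries, 421.8, 495.0 and 579.0 in the bFGF/BMP4 libraries, and 82.15, 60.31 and 112.3 in the BMP4 libraries. Here too no groups overlapped, but the order was bFGF/BMP4, bFGF/EGF, BMP4, and the BMP4 library with the highest level lay close below the lowest bFGF/EGF library. The means were 499 ± 78.6 in bFGF/BMP4, 150 ± 17.2 in bFGF/EGF and 84.9 ± 26.1 FPKM in BMP4 (SD, n = 3 each). The bFGF/BMP4 mean was 3.32 times the bFGF/EGF mean (log2 difference 1.72, SE 0.22) and 5.87 times the BMP4 mean. From bFGF/BMP4 to BMP4, the log2 difference was -2.59 (SE 0.22), and 155 of the tested genes had a more negative one. With 63768 to 80134 fragments per library, Ccnd2 held rank 38 of all tested genes in the bFGF/BMP4-treated NSCs, next to the rank that Ccnd1 held in the bFGF/EGF-treated NSCs. Between BMP4 and bFGF/EGF the log2 difference of Ccnd2 was -0.86 (SE 0.22), and it ran from -1.09 to -0.64 with each library left out in turn.

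Ccnd3 differed least between the groups among the D cyclins. Its levels were 11.58, 13.36 and 9.92 FPKM in the bFGF/EGF libraries, 8.25, 8.23 and 10.05 in the bFGF/BMP4 libraries and 7.26, 7.78 and 7.54 in the BMP4 libraries. The bFGF/EGF and bFGF/BMP4 groups overlapped, by 1 library on each side, and the BMP4 libraries lay below both. The means, 11.6 ± 1.72, 8.84 ± 1.04 and 7.53 ± 0.259 FPKM (SD, n = 3), were 1.31 times apart between the first pair, and the log2 difference of BMP4 from bFGF/EGF was -0.61 (SE 0.14).

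**Figure D1:**
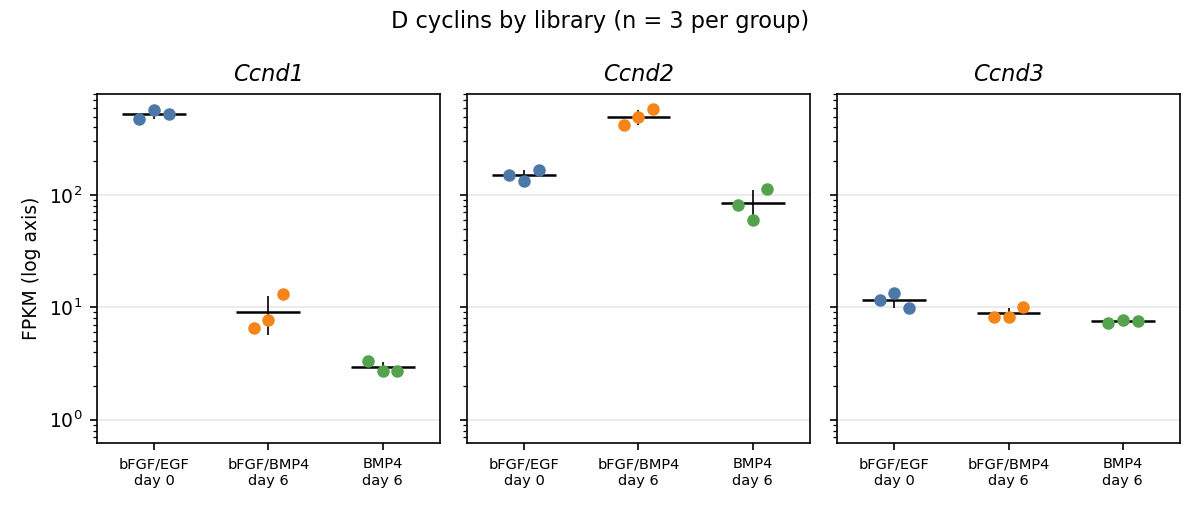
FPKM of Ccnd1, Ccnd2 and Ccnd3 on a shared log axis, by group. Points are the 3 libraries of a group, the horizontal line is their mean and the vertical line 1 SD. Ccnd1 runs from a mean of 523 down to 2.91, Ccnd2 peaks in bFGF/BMP4 at 499, and Ccnd3 stays between 7.26 and 13.36 in all libraries.

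FPKM is divided by a length for each gene, so the D cyclins were added up as a level. The exons of all annotated transcripts together cover 4783 bases for Ccnd1, 9409 for Ccnd2 and 9245 for Ccnd3. Such a length can exceed that of the mRNA made. Sums, shares and ratios between genes are therefore approximate, and the effect of the length used was not tested. Their sum was 685 ± 41.8 FPKM in the bFGF/EGF libraries and 517 ± 82.9 in the bFGF/BMP4 libraries, with ranges of 636.8 to 713.5 and 436.6 to 602.1 that did not overlap. In the BMP4 libraries the sum was 95.4 ± 26.0 FPKM (SD, n = 3 each). Between bFGF/EGF and bFGF/BMP4 the makeup of the sum differed more than its size. Ccnd1 made up 76.3% ± 2.89 of it in bFGF/EGF, 1.73% ± 0.383 with bFGF/BMP4 and 3.21% ± 0.885 with BMP4 (SD, n = 3). Ccnd2 made up 22.0% ± 3.02, 96.5% ± 0.360 and 88.5% ± 3.24 in the same order (SD, n = 3). The ratio of the Ccnd2 level to the Ccnd1 level was 0.290 ± 0.0495 in bFGF/EGF, 57.5 ± 11.5 with bFGF/BMP4 and 29.5 ± 10.6 with BMP4 (SD, n = 3). Both treated groups had most of their D cyclin mRNA from Ccnd2, although every bFGF/BMP4 sum was above every BMP4 sum. The share of Ccnd3 was 1.70% ± 0.254 and 1.72% ± 0.147 in bFGF/EGF and bFGF/BMP4, and 8.33% ± 2.46 in BMP4 (SD, n = 3), where its own level was the lowest.

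**Figure D2:**
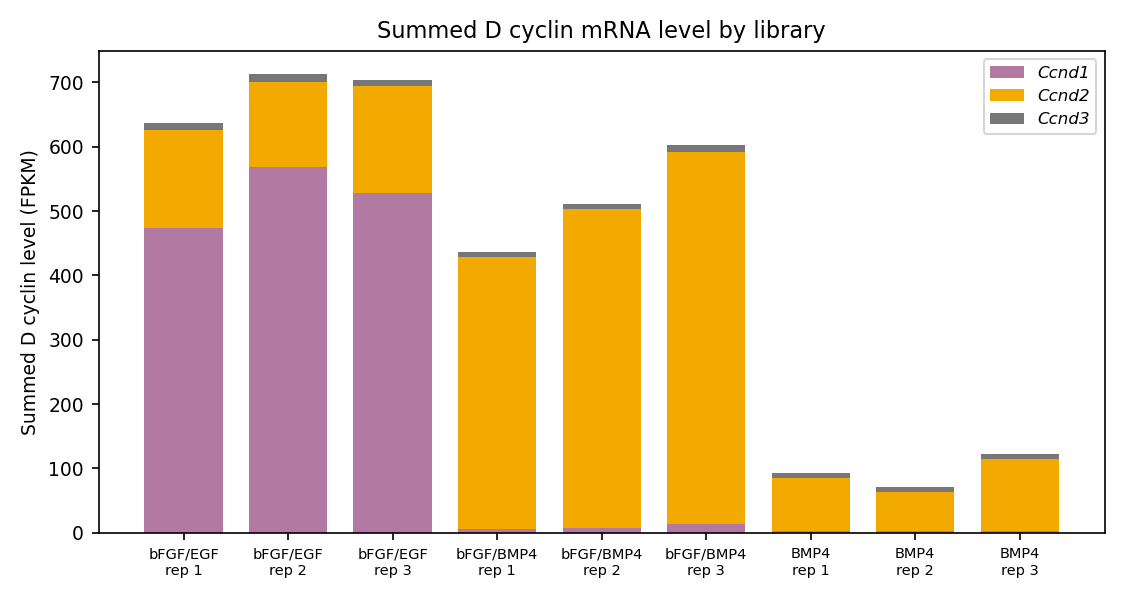
Summed FPKM of the 3 D cyclins in each of the 9 libraries, as stacked bars from 0 with one colour per gene. The bFGF/EGF bars are mostly Ccnd1, the bFGF/BMP4 bars mostly Ccnd2 at a summed level of 436.6 to 602.1, and the BMP4 bars, also mostly Ccnd2, end between 70.81 and 122.6.

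The Ccnd1 gene lies at chr7:144483668-144493662 on the minus strand of GRCm39, and the Ccnd2 gene at chr6:127102125-127129156, also on the minus strand. The 250 bases before the start site of the canonical Ensembl transcript of Ccnd2 are shown, since this is the D cyclin that was higher in bFGF/BMP4. They are read 5′ to 3′ from chr6:127128024-127128273, minus strand, and hold no annotated exon, although other Ccnd2 transcripts reach further upstream. The capitals mark TTTGAA, letters of the CHR element found in many cell cycle genes.
Ccnd2 upstream: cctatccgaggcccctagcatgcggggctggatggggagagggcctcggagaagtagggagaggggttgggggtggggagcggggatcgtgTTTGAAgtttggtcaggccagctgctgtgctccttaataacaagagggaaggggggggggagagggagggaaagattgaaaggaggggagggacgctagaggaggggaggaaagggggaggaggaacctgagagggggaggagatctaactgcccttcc

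On the strand as printed, 14.4% of these Ccnd2 bases were C and 47.6% G, with a GC content of 62.0% beside a median of 56.8% over all promoters. Both strands of the window from 250 bases before to 50 bases after the start site were searched in 13787 promoters for 5 motifs, whose letters were chosen after the members' promoters had been read. The windows of 9 of the 10 genes are described, without that of Ccnd1. TTTGAA was in 13.4% of the promoters, and among the 9 genes in that of Ccnd2. CTTTGAT, letters that TCF/LEF factors can bind, was in 2.63% of the promoters, and among the 9 genes in that of Cdk4. TGACGT, the core of the cyclic AMP response element, was in 10.9% of the promoters and in those of Ccnd3 and Cdk2. No match in the 9 genes overlapped another. A match is a stretch of letters and no evidence of binding.

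Among the kinases, Cdk4 was the more abundant partner of the D cyclins, and its level was lower in both treated groups. It measured 193.8, 201.5 and 145.9 FPKM in the bFGF/EGF libraries, 35.10, 37.05 and 41.41 in the bFGF/BMP4 libraries and 31.81, 40.23 and 35.08 in the BMP4 libraries. Both treated groups lay far below bFGF/EGF and overlapped each other. The means were 180 ± 30.2, 37.9 ± 3.23 and 35.7 ± 4.25 FPKM (SD, n = 3), the log2 differences from bFGF/EGF were -2.24 and -2.33, and that between BMP4 and bFGF/BMP4 was -0.09 (SE 0.15 each). Cdk6, the second partner of the D cyclins, was scarce, with means of 4.19 ± 1.21, 2.48 ± 0.493 and 0.997 ± 0.233 FPKM (SD, n = 3). Unlike Cdk4, Cdk6 was lower in every BMP4 library than in every bFGF/BMP4 library (log2 difference -1.24, SE 0.26). It made up 2.26% ± 0.448 of the summed Cdk4 and Cdk6 level in bFGF/EGF, 6.11% ± 0.664 with bFGF/BMP4 and 2.77% ± 0.842 with BMP4 (SD, n = 3). The annotated exons cover 14421 bases for Cdk6 and 3440 for Cdk4, so this share has the same limit of gene length. Cdk2, the kinase of cyclins E and A, had means of 9.18 ± 2.06, 4.56 ± 0.587 and 2.94 ± 0.232 FPKM (SD, n = 3), without overlap of any groups.

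The summed D cyclin level per summed Cdk4 and Cdk6 level was 3.80 ± 0.815 in bFGF/EGF, 12.8 ± 0.911 with bFGF/BMP4 and 2.64 ± 0.840 with BMP4 (SD, n = 3). The lowest bFGF/BMP4 library, at 11.77, was above the highest of the other 6, at 4.725, and the bFGF/EGF and BMP4 ranges overlapped. This is a ratio of mRNA levels with the same limit of gene length, and neither protein nor complex was measured.

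The Cdk4 gene lies at chr10:126895180-126903789 on the plus strand of GRCm39. Its 250 bases before the canonical start site, chr10:126899125-126899374, are shown because of their repeated E-boxes, the CACGTG letters bound by MYC and related factors. Capitals mark 3 of these and, near the 3′ end, CTTTGAT on the other strand. The stretch holds no annotated exon and lies within the span of the gene, since other Cdk4 transcripts start upstream.
Cdk4 upstream: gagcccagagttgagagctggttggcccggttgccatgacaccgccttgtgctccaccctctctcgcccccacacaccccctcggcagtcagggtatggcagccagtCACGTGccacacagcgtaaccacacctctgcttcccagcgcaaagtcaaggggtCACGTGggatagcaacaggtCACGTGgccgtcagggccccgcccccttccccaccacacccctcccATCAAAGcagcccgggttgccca

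With a further match 19 bases into the transcript, the Cdk4 window held 4 matches to CACGTG, as did 0.029% of the 13787 promoters with that number or more. At least 1 match was in 9.65% of the promoters, and among the other genes described the Cdk6 window held one.

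Downstream of the D cyclins, the E cyclins, Ccna2 and E2f1 shared one order of levels, highest in bFGF/EGF and lowest in BMP4. Ccne1, the cyclin that activates CDK2 at the G1/S boundary, measured 17.30, 18.50 and 11.25 FPKM in the bFGF/EGF libraries, 2.17, 4.58 and 4.14 in the bFGF/BMP4 libraries, and 0.93, 0.88 and 0.89 in the BMP4 libraries. The groups were apart, with means of 15.7 ± 3.89, 3.63 ± 1.28 and 0.898 ± 0.0237 FPKM (SD, n = 3), and the BMP4 values rest on 38 to 40 fragments. The log2 differences of Ccne1 were -2.12 for bFGF/BMP4 and -3.95 for BMP4 compared with bFGF/EGF, and -1.83 for BMP4 compared with bFGF/BMP4 (SE 0.28 each). Ccne2, the second E cyclin, was at 14.73, 7.60 and 10.54 FPKM in bFGF/EGF, at 1.99, 5.11 and 4.22 in bFGF/BMP4 and at 2.04, 1.89 and 1.61 in BMP4. Replicate 1 of bFGF/BMP4 lay within the BMP4 range of Ccne2, and the log2 difference between these groups, -0.90 (SE 0.34), ran from -1.29 to -0.63 with each library left out in turn.

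Ccna2, which drives S phase with CDK2, was at 65.45, 34.57 and 30.06 FPKM in bFGF/EGF, at 5.84, 9.99 and 12.17 in bFGF/BMP4 and at 2.08, 1.75 and 1.96 in BMP4. Relative to its mean, its spread among the bFGF/EGF libraries was the widest of the 10 genes, at 43.4 ± 19.3 FPKM (SD, n = 3, a coefficient of variation of 44.4%), and the groups were still apart. E2f1, the E2F factor that D cyclin kinases release, was at 15.87, 16.5 and 10.12 FPKM in bFGF/EGF, at 2.09, 4.46 and 4.27 in bFGF/BMP4 and at 1.21, 1.21 and 1.08 in BMP4. These are means of 14.2 ± 3.52, 3.61 ± 1.32 and 1.17 ± 0.0784 FPKM (SD, n = 3), and from bFGF/BMP4 to BMP4 the log2 difference of E2f1 was -1.48 (SE 0.29). Ccna2 had the largest of these last steps among the 4 genes, -2.15 (SE 0.32).

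**Figure D3:**
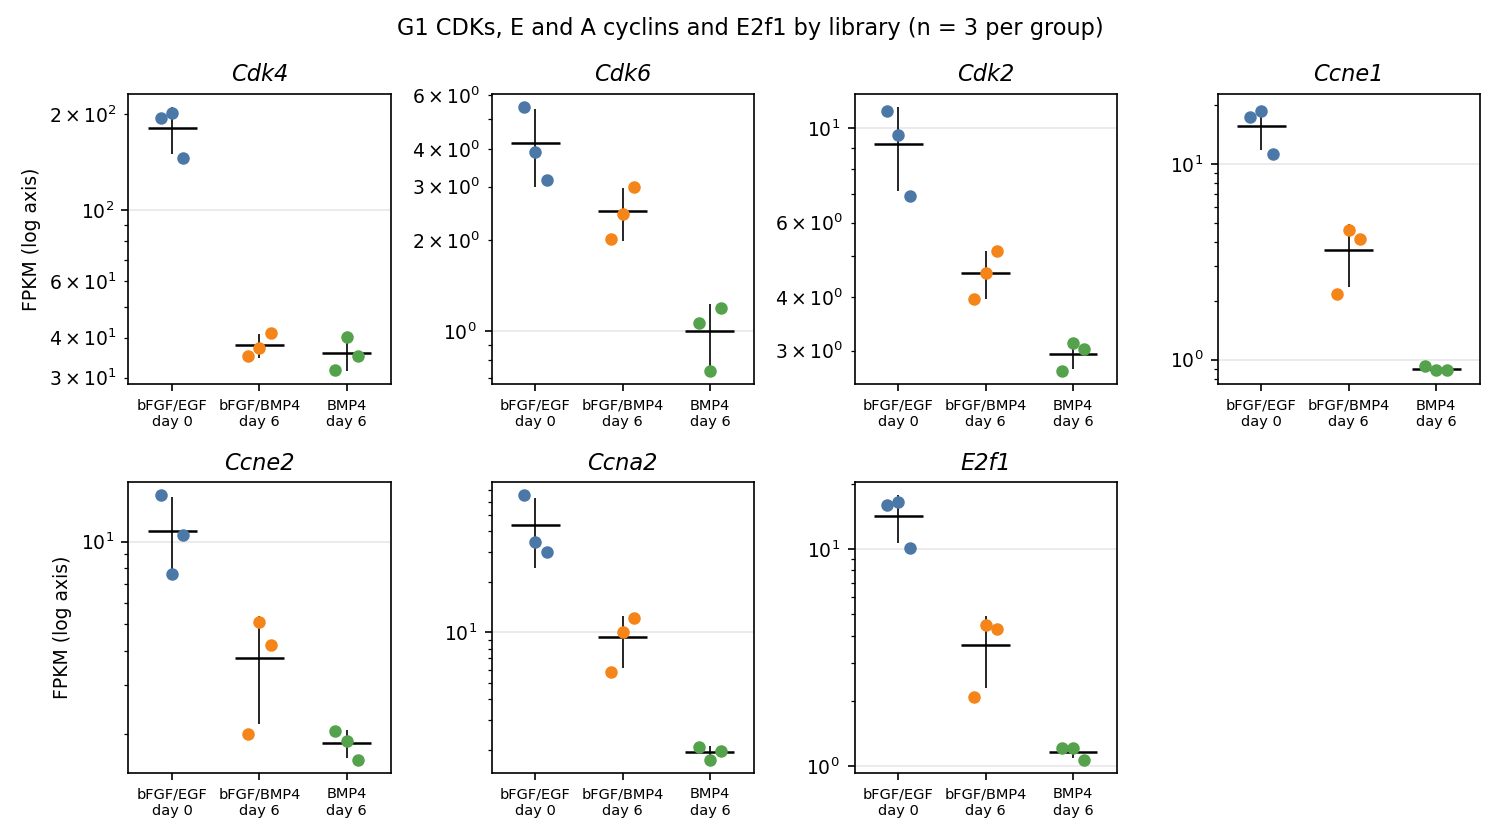
FPKM of Cdk4, Cdk6, Cdk2, Ccne1, Ccne2, Ccna2 and E2f1, each on its own log axis, in the 3 groups. Points are the 3 libraries of a group, the horizontal line is their mean and the vertical line 1 SD. Cdk4 is level between the treated groups (37.9 and 35.7), whereas Ccne1, Ccna2 and E2f1 step down again from bFGF/BMP4 to BMP4.

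E2f1 is itself known as a target of E2F factors. The first 30 bases of its transcript, in the 5′ UTR at chr2:154411783-154411812 (minus strand, GRCm39), are shown with the E2F letters in capitals, together with the Ccnd3 and Cdk2 stretches that hold such a match. The Ccnd3 stretch is chr17:47904127-47904156 on the plus strand, at positions -237 to -208 from the canonical start site and outside exons. The Cdk2 stretch is chr10:128541042-128541071 on the minus strand, at positions -108 to -79 from the canonical start site, and 23 of its 30 bases are exonic in other annotated transcripts.
E2f1 start: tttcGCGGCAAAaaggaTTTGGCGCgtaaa
Ccnd3 upstream: aaggaataactTTTGGCGCctagttctttc
Cdk2 upstream: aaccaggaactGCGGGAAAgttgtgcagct

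The E2F letters searched were TTTCCCGC, TTTCGCGC, TTTGCCGC and TTTGGCGC on either strand. They occurred in 3.86% of the 13787 promoter windows and in 3 of the 9 genes, and 0.16% of the windows held at least 2 matches, as that of E2f1 did. Of these 3 genes, E2f1 and Cdk2 were lower in both treated groups than in bFGF/EGF, and Ccnd3 overlapped between bFGF/EGF and bFGF/BMP4. The windows of Ccne1, Ccne2 and Ccna2 did not hold these letters. Only these exact letters near the canonical start site were searched, so E2F sites of other letters or places would be missed.

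Taking all 10 genes, 8 were lower in every bFGF/BMP4 library than in every bFGF/EGF library, Ccnd2 was higher in every one, and Ccnd3 overlapped. Of all genes tested, 27.5% were lower and 30.2% higher in this way. In BMP4 compared with bFGF/EGF, all 10 were lower without overlap, as were 27.8% of all genes tested, while 32.6% were higher. In BMP4 compared with bFGF/BMP4, 8 were lower without overlap, beside 18.3% of all genes tested that were lower and 20.5% that were higher, and Cdk4 and Ccne2 overlapped. The median log2 differences of the 10 genes were -1.77, -2.39 and -1.36 in these comparisons, and those of all genes tested 0.06, 0.10 and 0.00. Since the genes were picked with these comparisons in view, nothing is read from the counts.

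Within the bFGF/BMP4 group the 10 genes had nearly the same low library. Replicate 1 had the lowest level of 9 of the 10 genes, all except Ccnd3, including Ccnd2 on its different course, and it had the lowest level of 42.8% of all genes tested. In the bFGF/EGF group, replicate 3 was lowest for 7 of the 10 genes (36.8% of all genes tested), and highest for Ccnd2. Over the 9 libraries, which fall into 3 groups, Pearson's r of log2(FPKM + 0.1) was 0.76 to 1.00 among the 36 pairs without Ccnd2, and -0.16 to 0.48 between Ccnd2 and the other 9 genes. For Ccnd1 and Ccnd2 r was 0.02, for Ccnd1 and Cdk4 0.98, and for the 6 pairs of Ccne1, Ccne2, Ccna2 and E2f1 it was 0.95 to 1.00.

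The profile of each D cyclin was compared with that of 7559 named genes at a mean of at least 5 FPKM, over the 9 libraries. The genes most like Ccnd1 were Mest (r = 0.999), Plk2 (0.997), Tnfaip6 (0.997), Cxadr (0.996) and Vars1 (0.996). Mest, an imprinted gene, had means of 184, 6.42 and 2.73 FPKM in bFGF/EGF, bFGF/BMP4 and BMP4, and Plk2, a polo-like kinase, 80.4, 10.3 and 6.67. Those most like Ccnd2 were Zswim5 (r = 0.990), Kif3c (0.990), Atrnl1 (0.988), Ptprj (0.987) and Itgav (0.986). Itgav, the integrin alpha V subunit, had means of 14.8, 53.8 and 9.71 FPKM, and Ptprj, a receptor tyrosine phosphatase, 11.1, 41.5 and 7.04. For Ccnd3 they were Ubqln1 (0.983), Dgcr2 (0.982), Gna12 (0.979), Gatad1 (0.977) and Gpat4 (0.977), all with small differences between groups, such as 74.8, 61.5 and 55.7 FPKM for Ubqln1. With 3 groups of libraries, a high r says that 2 genes share the order and spacing of the group levels.

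The other genes of G1/S control were tested with limma, and a gene was called when its p, adjusted over all 20207 genes, was no higher than 0.05 and its fold change was 2 or more. In bFGF/BMP4 compared with bFGF/EGF, 4 of 41 such genes rose and 13 fell, beside 16.5% and 14.1% of all genes tested, with a median log2 difference of -0.41 (0.06 over all genes). In BMP4 compared with bFGF/EGF, 5 rose and 16 fell (21.3% and 15.4% of all genes, median -0.41). In BMP4 compared with bFGF/BMP4, 1 rose and 8 fell (8.41% and 5.14% of all genes, median -0.19). These lists and the other gene lists below were drawn up with results of these libraries known, so their counts are no independent evidence.

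The CDK inhibitors, which block the kinases of the D, E and A cyclins, mostly did not pass the threshold. In bFGF/BMP4 compared with bFGF/EGF, limma called 0 of 7, with 4 at an unadjusted p under 0.05, and limma-voom also called 0. Cdkn2b (log2 difference 0.70, limma adjusted p = 0.041) and Cdkn2c (-0.69, limma adjusted p = 0.028) missed only the fold threshold there. Of all genes tested, 16.5% rose and 14.1% fell there. Cdkn2b, an inhibitor of CDK4 and CDK6, rose in BMP4, from 9.98 ± 3.7 FPKM in bFGF/EGF and 15.6 ± 1.1 in bFGF/BMP4 to 47.6 ± 10 (SD, n = 3, log2 differences 2.29 and 1.59, limma adjusted p = 3.4e-05 and 0.0013). Cdkn2c, of the same family, fell in BMP4 compared with bFGF/EGF, from 49.7 ± 14 to 20.1 ± 4.9 FPKM (SD, n = 3, log2 difference -1.29, limma adjusted p = 0.00078). Cdkn1a, the p53 target p21, was abundant in all groups, at 134 ± 21, 101 ± 11 and 144 ± 19 FPKM (SD, n = 3), and its log2 difference between BMP4 and bFGF/BMP4 was 0.50 (limma adjusted p = 0.046), below the fold threshold. Cdkn1b, the gene of p27, was at 27.8 ± 4.7, 30.1 ± 4.2 and 34.6 ± 2.1 FPKM (SD, n = 3). The means of Cdkn2a were 69.6, 46.3 and 83.1 FPKM, those of Cdkn2d 24.5, 19.5 and 13.8, and those of Cdkn1c 0.962, 0.981 and 1.25, none past both thresholds.

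The retinoblastoma family split by member. Rbl2, the gene of p130, which assembles the repressor complex of resting cells, measured 3.95 ± 0.43 FPKM in bFGF/EGF, then 9.66 ± 0.74 with bFGF/BMP4 and 9.69 ± 1.3 with BMP4 (SD, n = 3), a rise of 1.27 in log2 in both treated groups (limma adjusted p = 5.8e-05 and 4.3e-05). Rb1 rose from 9.44 ± 1.5 to 21.4 ± 1.1 FPKM in BMP4 (SD, n = 3, log2 difference 1.19, limma adjusted p = 3.8e-05), and at 18.3 ± 0.95 FPKM in bFGF/BMP4 its log2 difference of 0.96 was below the fold threshold. Rbl1, the gene of p107 and itself an E2F target, fell at each step, from 8.88 ± 3.2 to 3.05 ± 1.1 and 0.835 ± 0.069 FPKM (SD, n = 3, log2 differences -1.53 and -1.68, limma adjusted p = 0.0025 and 0.0035). The subunits that the DREAM complex and the B-MYB complex share went different ways. Lin52 rose in both treated groups compared with bFGF/EGF (log2 differences 1.35 and 1.65, limma adjusted p = 0.00011 and 2.1e-05), whereas Lin9 fell in both (-1.49 and -2.12, limma adjusted p = 0.00073 and 5.4e-05). Rbbp4 fell in bFGF/BMP4 (log2 difference -1.18, limma adjusted p = 0.0002), and in BMP4 (-1.01, limma adjusted p = 0.00042) it was under the fold threshold without replicate 1 (-0.95) or 2 (-0.92) of bFGF/EGF or replicate 1 (-0.95) or 3 (-0.97) of BMP4. Lin54, at -0.69 and -0.86, and Lin37, at 0.07 and 0.01, did not pass the threshold. Mybl2, which encodes B-MYB, fell in both treated groups (log2 differences -2.73 and -4.12, limma adjusted p = 8.7e-05 and 4.1e-06).

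Among the other E2F and DP factors, 4 of 9 fell in bFGF/BMP4 and 6 of 9 in BMP4, each compared with bFGF/EGF, and 3 fell from bFGF/BMP4 to BMP4. Of all genes tested, 14.1%, 15.4% and 5.14% fell in these comparisons. E2f2, an activator like E2f1, went from 7.92 ± 2.3 to 0.865 ± 0.31 and 0.189 ± 0.068 FPKM (SD, n = 3), and its log2 differences from bFGF/EGF were -3.07 and -4.78 (limma adjusted p = 4.9e-05 and 2e-06). The repressors E2f7 and E2f8, which are made in S phase, fell from 4.53 and 7.62 to 0.885 and 1.66, and then to 0.104 and 0.394 FPKM, with adjusted p of 0.0016 and 0.013 for the second step (limma). That step of E2f8 had an adjusted p of 0.052 without replicate 2 and 0.054 without replicate 3 of bFGF/BMP4 (limma), and with a pseudocount of 1 none of the 3 falls from bFGF/BMP4 to BMP4, in E2f2, E2f7 and E2f8, passed the threshold (log2 differences -0.64, -0.76 and -0.88). The log2 differences of the third activator, E2f3, were -0.89 and -1.07 from bFGF/EGF, and those of E2f4, a partner of the retinoblastoma family in resting cells, -0.85 and -1.04, of which those in BMP4 passed the threshold, that of E2f4 not without replicate 2 of bFGF/EGF (-0.98). E2f5 had group means of 9.54 to 10.3 FPKM, E2f6 was at 14.7 and 16.0 in the bFGF groups and 11 in BMP4, and Tfdp2, a dimer partner of E2F, at 5.41, 6.92 and 5.67. Tfdp1, the other dimer partner, fell from 84.8 ± 13 to 19.5 ± 4.9 and 16.3 ± 1.5 FPKM (SD, n = 3) in the first step and differed by -0.23 in log2 in the second (limma adjusted p = 1.6e-05 and 0.48).

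Of 5 genes that act on CDK activity, among them the inhibitor Wee1, 2 fell in each comparison with bFGF/EGF and 1 from bFGF/BMP4 to BMP4. The shares of all genes tested that fell were 14.1% in bFGF/BMP4 and 15.4% in BMP4 compared with bFGF/EGF, and 5.14% from bFGF/BMP4 to BMP4. Cdc25a, the phosphatase that activates CDK2, was at 7.07, 1.77 and 1.05 FPKM in the group means (log2 differences from bFGF/EGF -1.94 and -2.62, limma adjusted p = 0.00013 and 1.3e-05). Wee1, a kinase that restrains CDKs, was the gene that fell from bFGF/BMP4 to BMP4 (log2 difference -1.43, limma adjusted p = 0.0023). It was also among the falls in BMP4 compared with bFGF/EGF (-2.38, limma adjusted p = 2.5e-05). Among 11 genes of cyclin and inhibitor turnover, Fbxw7, which marks cyclin E for degradation, had its highest level in bFGF/BMP4 as Ccnd2 did. Its means were 6.53 ± 1.4, 17.6 ± 4.2 and 7.45 ± 0.56 FPKM (SD, n = 3), a rise of 1.41 in log2 followed by a fall of -1.20 (limma adjusted p = 0.00034 and 0.0023). Skp1 rose in BMP4 compared with bFGF/EGF (log2 difference 1.63, limma adjusted p = 0.00011), Cks1b fell in bFGF/BMP4 (-2.11, 5.8e-05) and Fbxo5 fell in BMP4 (-3.16, 1.1e-05).

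The S phase targets of E2F, genes of replication licensing and nucleotide supply, mostly fell in both treated groups compared with bFGF/EGF, and fewer of them fell from bFGF/BMP4 to BMP4. Of 20 such genes, 19 fell in bFGF/BMP4 and 20 in BMP4 compared with bFGF/EGF, with median log2 differences of -2.29 and -3.68. Of all genes tested, 14.1% and 15.4% fell in these comparisons. From bFGF/BMP4 to BMP4, 11 of 20 fell (median -1.22), beside 5.14% of all genes tested. The count was 7 without replicate 3 of bFGF/BMP4, and 7 to 14 over all libraries left out in turn. Slbp, the histone mRNA binding protein, was at 4.23 and 4.24 FPKM in the treated groups (log2 difference -0.02, limma adjusted p = 0.97). Uhrf1, a factor of maintenance methylation, fell most against bFGF/EGF, from 62.1 ± 17 to 7.31 ± 2.8 and 1.75 ± 0.21 FPKM (SD, n = 3). Mcm5, a subunit of the replicative helicase, had the largest fall from bFGF/BMP4 to BMP4 (log2 difference -2.07, limma adjusted p = 0.00075). The G2/M cyclins and Cdk1 fell for 6 of 7 genes in bFGF/BMP4 and for 7 of 7 in BMP4 compared with bFGF/EGF, and for 7 of 7 from bFGF/BMP4 to BMP4 (14.1%, 15.4% and 5.14% of all genes tested). Ccnb1, the mitotic cyclin, had the largest fall in BMP4, from 42.8 ± 21 in bFGF/EGF and 9.94 ± 2.2 in bFGF/BMP4 to 1.47 ± 0.18 FPKM (SD, n = 3, log2 differences -4.66 and -2.66, limma adjusted p = 1.5e-06 and 0.00023). Ccnf had the largest fall in bFGF/BMP4 (log2 difference -2.23, limma adjusted p = 0.00034).

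Few were called of the other cyclins and CDKs, those of transcription and other tasks. They are named here as outside the cell cycle, which is loose for some of them, such as Ccng1 and Ccng2. Of 22 listed, 21 were tested. In bFGF/BMP4 and BMP4 compared with bFGF/EGF, 16.5% and 21.3% of all genes tested rose and 14.1% and 15.4% fell. Of the 21, 1 was called in each of these comparisons, with median log2 differences of -0.09 and -0.07. It was Cdk19, a kinase of the Mediator complex, which rose from 8.22 ± 2.4 to 21.2 ± 5.6 and 30.9 ± 1.6 FPKM (SD, n = 3, log2 differences 1.35 and 1.93, limma adjusted p = 0.00063 and 4.6e-05). From bFGF/BMP4 to BMP4, limma called 0 of 21, with 6 at an unadjusted p under 0.05, and limma-voom called 0. Of all genes tested, 8.41% rose and 5.14% fell in that comparison.

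**Figure D4:**
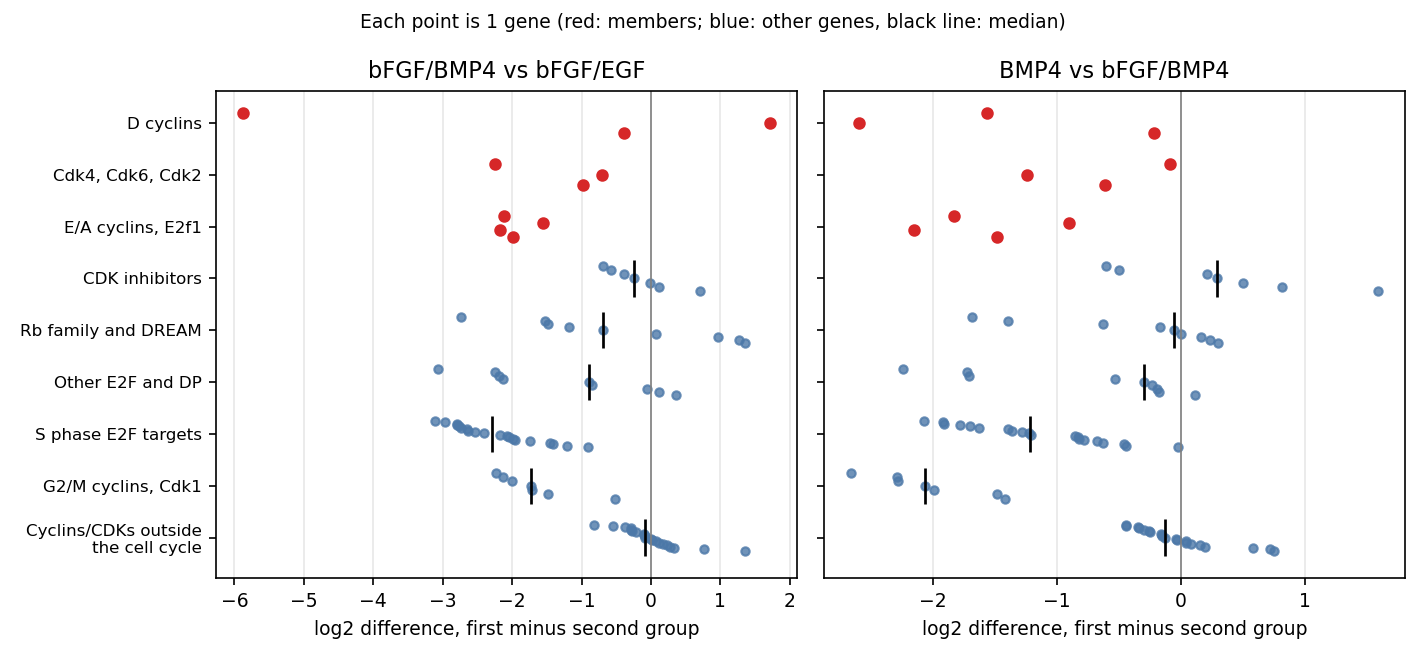
Log2 difference (first minus second group, from mean log2 of FPKM + 0.1) of each gene for bFGF/BMP4 compared with bFGF/EGF and for BMP4 compared with bFGF/BMP4. Red points are the 10 genes by role, blue points genes of the other lists, black lines list medians, and the panels have different axis ranges. The D cyclins spread from -5.88 to 1.72 on the left, whereas the S phase targets (median -2.29) lie below 0 and the cyclins and CDKs outside the cell cycle lie around it (median -0.09).

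Genes annotated on the opposite strand share exon bases with several of the 10 genes, and the sources do not say whether fragments were assigned by strand. LTO1 shares 48.4% of the exon bases of Ccnd1 and was at 1.83, 2.45 and 2.95 FPKM in the group means, so its level in BMP4 was like that of Ccnd1 there (2.91). Tspan31 shares 18.8% of those of Cdk4 and was at 38.7, 38.0 and 34.1 FPKM, near the level of Cdk4 in both treated groups. Exosc9 shares 17.5% of those of Ccna2 (11.1, 3.73 and 5.27 FPKM) and Ints8 15.2% of those of Ccne2 (6.17, 4.08 and 4.50 FPKM), and Bysl shares 3.99% of those of Ccnd3 (21.6, 8.08 and 5.38 FPKM). For Ccne1, 1.93% of the exon bases are shared with 1600014C10Rik, at 0.783, 2.26 and 1.71 FPKM, above the 0.898 FPKM of Ccne1 in BMP4. The part of these neighbours in the levels of Ccnd1, Ccnd3, Cdk4, Ccna2, Ccne1 and Ccne2 was not tested. For Ccnd2, whose exons meet only noncoding genes on the other strand, those of them in the table were at most at 0.756 FPKM in any group mean.

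The libraries held markers of NSCs in all groups, but also markers of other cell types, whose levels differed between the groups. All 8 NSC markers were above 1 FPKM in at least 1 group mean, with summed levels of 1740 to 1860 FPKM in bFGF/EGF, 751 to 852 in bFGF/BMP4 and 1470 to 1920 in BMP4. Sox2 was at 167 ± 36, 137 ± 12 and 137 ± 13 FPKM, while Nes fell from 151 ± 6.4 to 3.55 ± 0.52 in bFGF/BMP4 and was at 15.8 ± 5.0 in BMP4 (SD, n = 3). The 6 mature astrocyte markers summed to 129 to 176, 492 to 526 and 3230 to 4100 FPKM, and Gfap alone was at 0.0926, 19.4 and 2570. Aldh1l1, of the same list, fell from 135 to 24.2 and 58.1 FPKM (log2 differences -2.46 and -1.21, limma adjusted p = 9.3e-07 and 6.7e-05), and Slc1a2 was highest in bFGF/BMP4, at 12.6, 175 and 65.5 FPKM. The 5 markers of oligodendrocyte precursors summed to 1560 to 2260, 1310 to 1800 and 216 to 423 FPKM, almost all of it from Olig1 and Olig2, with Pdgfra and Sox10 below 1 FPKM in all group means. The 10 neuronal markers summed to 78.1 to 93.9, 56.1 to 62.2 and 158 to 232 FPKM, with Tubb3 at 20.3, 17.0 and 145, but Syt1 at 3.83, 0.137 and 0.371, Map2 at 56.2, 30.5 and 34.1 and Rbfox3 at 0.989, 1.57 and 0.522 FPKM. The 5 ependymal markers summed to 6.92 to 11.5, 11.1 to 11.6 and 56.7 to 67.6, with Tmem212 listed at 0. The 5 vascular markers reached at most 5.41 FPKM, with Cldn5 listed at 0, and the 5 microglial markers at most 0.876. The part of these cell type markers in the cyclin levels was not tested.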

How the data were processed

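The data were FPKM values of bulk RNA-seq for 9 libraries of mouse NSCs in 3 groups of 3. According to the paper, reads were cleaned and aligned to mm39, and the submitters' processing notes name fastp 0.19.7, HISAT2 2.0.5 and featureCounts 1.5.0-p3. The authors deposited FPKM per gene, and the annotation release, the use of strand and the library scaling are not given in the sources used here. GENCODE vM39 on GRCm39 supplied names for 54749 of 55704 identifiers, coordinates and start sites.

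Each FPKM is a fragment number divided by a gene constant and a library constant. Whole numbers (tolerance 0.02) were rebuilt for all 30860 genes above 0. They were found up to a common factor shared by all libraries of a gene, and cover counting error only. Tests used limma 3.58.1 (R 4.3.3) with a trend on log2(FPKM + 0.1), a minimum mean FPKM of 0.1, all libraries, Benjamini-Hochberg adjustment, and calls at the thresholds of the study (adjusted p-value 0.05, 2-fold change). The authors tested their counts with DESeq2. Counts published with the paper were not used here, since every value comes from the deposited FPKM, which are not counts. The fit was also run on simulated data with a fixed dispersion, in which 200 genes or none were changed, in the BMP4 group only. The real data had far more called genes, so nothing is read from that run. Tables and figures used Python 3.11.15, pandas 2.3.3, numpy 2.4.6 and matplotlib 3.10.9.

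The members, the gene lists and the naming rule were chosen with earlier results of these data known. Named were the members, every CDK inhibitor, retinoblastoma and E2F gene, the largest called rise and fall of each list per comparison, the 5 closest profiles of each D cyclin, the NSC markers Sox2 and Nes, and leading markers of other cell types. Lin9, Lin37, Lin54, Rbbp4, Slbp, Aldh1l1, Slc1a2, Syt1, Map2 and Rbfox3 were chosen after their values were seen. The Ccnd1 promoter and 1 marker list are not reported here. Alternatives were a pseudocount of 1, other filters, no fold threshold, TPM and median-ratio scaling, limma-voom, a replicate block, fits of 2 groups and each library left out.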

Additional observations from a re-analysis of the deposited data

How the results depend on the processing

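The log2 differences of the 10 genes kept their sign under every alternative run. The 64 calls of 28 named genes outside the 10 were also recomputed, which was chosen after seeing the data. No sign was reversed, 55 calls held under every alternative, and 9 were lost under at least 1: with a pseudocount of 1, E2f3 (-0.98), E2f4 (-0.98) and Rbbp4 (-0.99) in BMP4 compared with bFGF/EGF and E2f2, E2f7, E2f8, Fbxo5 and Mybl2 in BMP4 compared with bFGF/BMP4 (-0.88 to -0.64), and with limma-voom Skp1 in bFGF/BMP4 compared with bFGF/EGF (0.98). Some of these calls also hung on single libraries. That of Fbxo5 was lost without replicate 2 or 3 of bFGF/BMP4 or 1 or 2 of BMP4 (limma adjusted p 0.059 to 0.078). Mybl2 lost its call without replicate 2 of bFGF/BMP4 (limma adjusted p = 0.053). Skp1 fell under the fold threshold without replicate 3 of bFGF/EGF or 2 or 3 of bFGF/BMP4 (0.95 to 0.99). Counts moved by over 1.5 times under the settings that follow. With a pseudocount of 1, 3544, 4364 and 1449 of all genes were called in bFGF/BMP4 and BMP4 compared with bFGF/EGF and in BMP4 compared with bFGF/BMP4 (6174, 7400 and 2738 as reported), and in the first the calls were 1723 higher and 1821 lower, against 3327 and 2847. In the last of these, 4 G1/S control genes and 7 S phase targets were then called, and the log2 difference of Ccnd1 in BMP4 compared with bFGF/EGF was -7.06. With no fold threshold, 9819 and 4271 of all genes were called in the first and last comparison, 26 G1/S control genes in the first, and 6, 7 and 4 of the cyclins and CDKs outside the cell cycle. With a minimum mean FPKM of 1, 1800 were called in the last comparison. Over fits without 1 library each, the S phase targets called there ranged from 7 to 14. TPM and median-ratio scaling moved the median of all genes by at most 0.08 in log2.

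The labels do not say what a replicate number marks. Same-numbered libraries had correlations of -0.084 to 0.125 of their deviations from the group means, and differently numbered ones -0.154 to 0.081. With 3 libraries per group, these values cannot show whether same-numbered libraries share an isolation. With the replicate block, 6127, 7383 and 2612 of all genes were called, and 17, 21 and 9 G1/S control genes.

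The log2 differences of genes with a low FPKM depend on the pseudocount. With a pseudocount of 1, those of Ccne1, E2f1, Ccna2, Cdk2 and Cdk6 in BMP4 compared with bFGF/EGF were -3.11, -2.78, -3.84, -1.35 and -1.36, against -3.95, -3.46, -4.34, -1.58 and -1.95. In BMP4 compared with bFGF/BMP4, those of Ccne1, E2f1 and Cdk6 were -1.24, -1.04 and -0.80, against -1.83, -1.48 and -1.24. FPKM is relative to all mRNA of a library, so a change in total mRNA per cell is not seen.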
